A study of Homo sapiens with 4 samples.

Results

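The genes described here are 9 interferon-stimulated genes, BST2, IFI44L, DDX60, IFIT1, IFIT2, IFIT3, ISG15, STAT2 and IRF9, chosen by symbol, and all 9 were found among the 14431 genes listed in the expression table. They were measured by RNA-Seq in HGC27, an established line labelled as human gastric cancer, in 2 groups of 2 libraries. The control group carried the wild-type genotype, and the siAARS1 group carried a knockdown of AARS1, which encodes the cytosolic alanyl-tRNA synthetase. Both groups were grown in glucose-free DMEM with 25 mM lactate, for 24 h per the labels (the text of the study gives another duration), so that every value below is from lactate-treated cells and none from untreated ones. The study used the comparison to ask how AARS1 knockdown changed the transcriptome of these cells. A single line was used, and nothing in the labels says whether the 2 libraries of a group came from separate cultures, so that the p-values measure only the spread between these libraries, which may be technical.

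Type I interferons bind a receptor whose kinases phosphorylate STAT proteins. A STAT dimer that holds STAT2 joins IRF9 to form the factor ISGF3, which binds the interferon-stimulated response element (ISRE) in the promoters of interferon-stimulated genes. Many of these genes encode proteins that block virus entry, translation, replication or release, and STAT2 and IRF9 are themselves interferon-stimulated. In tumor cells such genes can be expressed at a low level without added interferon.

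To show what the members share at their promoters, the RefSeq promoter sequences (GRCh38.p14, 250 bases before to 50 bases after each start site) were searched on both strands for the ISRE letters, GAAA, any 2 bases, then GAAA again. Promoters were given for 8 of the 9 members, and IFIT2 is named only. The letters were found in the promoters of 6 members, BST2, ISG15, IFIT1, IFIT3, IFI44L and DDX60, and in 3.57% of all 35116 promoters. They were not found in these windows of STAT2 and IRF9, which says only that these letters are not there. One window of 30 bases is shown for each of the 6 genes, on the strand of the gene and 5′ to 3′, with the matched letters in capitals, because they were found in all 4 genes called higher after the knockdown and in 2 of the 4 called lower, a difference that was not tested.
BST2 (chr19:17405738-17405767, minus strand): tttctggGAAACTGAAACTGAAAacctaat
ISG15 (chr1:1013377-1013406, plus strand): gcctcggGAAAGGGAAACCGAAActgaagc
IFIT1 (chr10:89392503-89392532, plus strand): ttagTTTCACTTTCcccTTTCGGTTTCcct
IFIT3 (chr10:89332468-89332497, plus strand): gttccatcagTTTCACTTTCctttcccctt
IFI44L (chr1:78620365-78620394, plus strand): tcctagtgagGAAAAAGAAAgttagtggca
DDX60 (chr4:168318786-168318815, minus strand): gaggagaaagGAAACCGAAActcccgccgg
In BST2 and ISG15 a pair of matches overlap, in IFIT1 2 matches lie on the opposite strand, and the IFI44L window occurs a second time, letter for letter, 91 bases further upstream. IFIT3 has 2 promoters in the table and DDX60 has 1, each with 2 matches, of which the one nearest the start site is shown. For IFIT3 the window shown is from the promoter at chr10:89332279-89332578. The matches of its other promoter, at chr10:89327747-89328046, began 156 and 122 bases upstream of that start site and are not shown. The letters TTCNNNGAA, the core of the gamma-activated sequence, were found in BST2, DDX60 and IRF9 and in 7.66% of all promoters. A match is a description of the letters and not a bound site.

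Expression was given as CPM, the reads of a gene scaled to a common library size, and the smallest steps in the values returned whole reads for 100% of values, within 0.1 of a read. The libraries held 30653210 to 33522573 reads in the listed genes, so that 1 read was worth 0.0293 to 0.0324 CPM and 3 reads 0.0880 to 0.0971 CPM. AARS1 (listed as AARS) was at 428 and 417 CPM in the controls, against 292 and 298 CPM after the knockdown, 69.7% of the control level. Its log2 fold change of -0.52 stood at the 11.9 percentile of all genes tested. After the GC and length correction given further on, AARS1 was at -0.30. Of the epithelial markers only KRT8 and CDH1 were among the listed genes, and their summed level was 27.0 to 27.3 CPM in control and 6.14 to 7.29 CPM in siAARS1 libraries. KRT18, KRT19 and EPCAM were not listed. All 5 fibroblast markers were listed, at a summed 6458 to 6661 CPM in control and 4709 to 4801 CPM in siAARS1 libraries, and none of the leukocyte, plasmacytoid dendritic cell or endothelial markers was. The fibroblast markers did not move together, since COL1A1, COL1A2 and COL3A1 were lower, while LUM (log2 fold change 0.84, limma adjusted p = 1.85e-13) and DCN (0.11, limma adjusted p = 0.0155) were higher. The part of these marker differences in the results below was not tested. Fewer cells of a type and less RNA per cell cannot be told apart in bulk libraries.

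After AARS1 knockdown the 9 genes moved in both directions. STAT2, IRF9, BST2 and ISG15 were lower, IFI44L, DDX60, IFIT1 and IFIT3 were higher, and IFIT2 did not pass the test. A gene was called when the limma test on log2(CPM + 1) gave a Benjamini-Hochberg adjusted p under 0.05 over the 14199 genes tested, which were those whose mean reached 1 CPM in either group. By this rule 8 of the 9 were called, beside 70.7% of all genes tested. The 4 called higher stand beside 32.6% of all genes and the 4 called lower beside 38.0%. The control and siAARS1 libraries did not overlap for any of the 9, as for 85.1% of all genes, with siAARS1 higher for 5 (38.5% of all genes) and lower for 4 (46.6% of all genes). The median log2 fold change of the 9 was 0.32, with -0.05 over all genes tested. DDX60 passed the filter on low values through the siAARS1 group alone, and the other 8 passed in both groups.

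**Figure D1:**
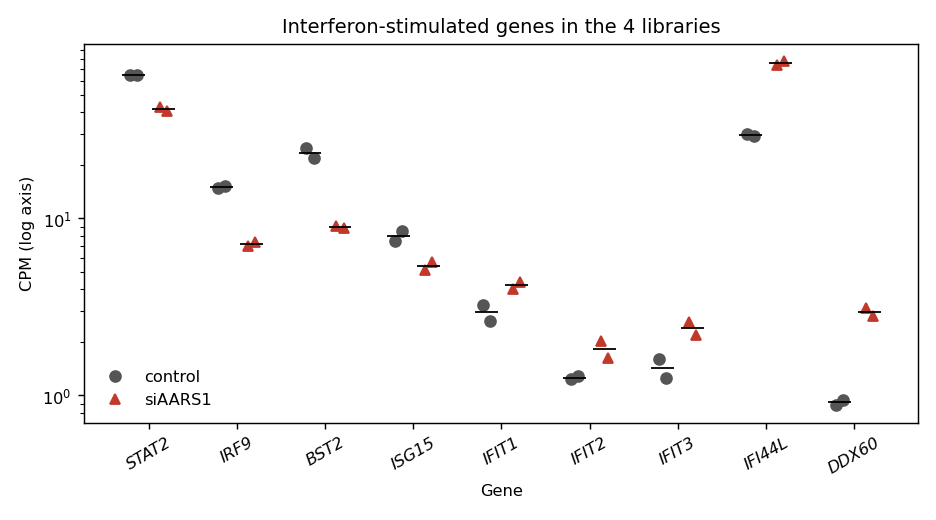
Expression of the 9 genes in CPM on a log axis, with 1 point for each of the 2 control and 2 siAARS1 libraries. STAT2, IRF9, BST2 and ISG15 have both siAARS1 points under both control points, and the other 5 genes have them above.

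Together the opposite changes nearly cancelled. The summed level of the 9 genes was 149 and 146 CPM in the controls, against 149 and 151 CPM after the knockdown. The 4 lower genes together went from 112 and 111 CPM to 63.5 and 62.2 CPM, and IFI44L alone from 30.1 and 29.2 CPM to 74.0 and 77.3 CPM.

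STAT2 (ENSG00000170581, chr12:56341597-56360155, minus strand, hg38) encodes the STAT protein particular to type I and type III interferon signaling. It was at 64.9 and 64.9 CPM in the controls, against 42.4 and 40.3 CPM after the knockdown. Both siAARS1 libraries lay below both controls, and their mean of 41.3 ± 1.47 CPM was 63.6% of the control mean of 64.9 ± 0.0198 CPM (SD, n = 2 each). On the log2 scale the change was -0.64 (SE 0.0530, 95% interval -0.75 to -0.53, limma adjusted p = 5.79e-10).

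IRF9 (ENSG00000213928, chr14:24161053-24166565, plus strand) encodes the DNA-binding partner of the STAT dimer in ISGF3. It was at 14.9 and 15.3 CPM in the controls, against 6.99 and 7.40 CPM after the knockdown, with the siAARS1 libraries lower and no overlap. The fold change was -0.97 on the log2 scale (SE 0.0967, limma adjusted p = 1.08e-08), and the siAARS1 mean was 47.6% of the control mean. All 1808 of the 31-base windows of its longest transcript also occur in an overlapping gene on the same strand (ENSG00000259529, chr14:24151218-24167402), so that the split of reads between them depends on the counting. That gene was at 3.08 and 3.81 CPM in control cells, against 7.19 and 7.25 CPM with siAARS1, a change opposite to that of IRF9. The sum of both was 17.98 and 19.1 CPM in control cells, against 14.2 and 14.6 CPM with siAARS1, and changed by -0.34 on the log2 scale (SE 0.0824, limma adjusted p = 0.000921). The summed level was therefore also lower after the knockdown, by less than IRF9 alone.

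BST2 (ENSG00000130303, chr19:17402939-17405648, minus strand) encodes tetherin, a membrane protein that holds budding enveloped viruses at the cell surface. It was at 25.1 and 22.0 CPM in the controls, against 9.10 and 8.87 CPM after the knockdown. The siAARS1 libraries were the lower ones and the siAARS1 mean of 8.99 ± 0.159 CPM was 38.2% of the control mean of 23.5 ± 2.22 CPM (SD, n = 2 each). With a log2 fold change of -1.29 (SE 0.0896, 95% interval -1.48 to -1.11, limma adjusted p = 2.78e-11), BST2 stood at the 0.528 percentile of the changes of all genes tested.

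ISG15 (ENSG00000187608, chr1:1001138-1014540, plus strand) encodes a ubiquitin-like protein that is conjugated to other proteins. It was at 7.48 and 8.45 CPM in the controls, against 5.08 and 5.69 CPM after the knockdown. Both siAARS1 libraries were below both controls, at 67.6% of the control mean. On the log2 scale ISG15 changed by -0.49 (SE 0.116, 95% interval -0.73 to -0.25, limma adjusted p = 0.000831).

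The IFIT genes encode tetratricopeptide-repeat proteins that bind RNA or each other, and IFIT1 recognizes foreign RNA by its cap. They lie side by side on chromosome 10. IFIT1 (ENSG00000185745, chr10:89392546-89406486) was at 3.25 and 2.65 CPM in the controls, against 3.98 and 4.39 CPM after the knockdown. The siAARS1 libraries were higher, 1.42-fold in the mean, and the log2 change was 0.40 (SE 0.137, limma adjusted p = 0.0142). The call was lost without control replicate 2 (limma adjusted p = 0.128) or siAARS1 replicate 2 (limma adjusted p = 0.106).

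IFIT3 (ENSG00000119917, chr10:89327894-89340971), whose product binds and stabilizes IFIT1, was at 1.61 and 1.26 CPM in control cells, against 2.59 and 2.20 CPM with siAARS1. Both siAARS1 libraries were above both controls, and the change on the log2 scale was 0.48 (SE 0.156, limma adjusted p = 0.00945), a call lost without control replicate 2 (limma adjusted p = 0.0745) or siAARS1 replicate 1 (limma adjusted p = 0.0937). IFIT2 (ENSG00000119922, chr10:89283694-89309276) was at 1.23 and 1.29 CPM in control cells, against 2.04 and 1.62 CPM with siAARS1. These came from 42, 41, 63 and 54 reads, and the exact 95% Poisson intervals, which cover counting error only, were 0.888 to 1.66 and 0.927 to 1.75 CPM in control and 1.57 to 2.61 and 1.22 to 2.12 CPM in siAARS1 libraries. The intervals of the 2 groups overlapped, and the log2 fold change of 0.32 (SE 0.159, 95% interval -0.01 to 0.65) did not pass the test (limma adjusted p = 0.0768). Such intervals also overlapped for the called IFIT1, at 2.68 to 3.92 CPM in control replicate 1 and 3.31 to 4.75 CPM in siAARS1 replicate 1. For the called IFIT3 they overlapped at 1.22 to 2.10 CPM in control replicate 1 and 1.72 to 2.76 CPM in siAARS1 replicate 2. Exons of IFIT2 overlap LIPA on the opposite strand, and whether the counting used strand is not given in the sources used here. LIPA was at 88.7 and 95.4 CPM in control cells, against 71.4 and 73.0 CPM with siAARS1.

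The neighboring paralog IFIT5 was at 6.36 and 6.24 CPM in control cells, against 9.59 and 8.84 CPM with siAARS1 (limma adjusted p = 0.000456). It lay in the direction of IFIT1 and IFIT3 on the deposited scale, and for IFIT1 and IFIT5 that direction turned when GC content and transcript length were taken into account, as given further on. IFIT5 was then called lower at -0.45 (limma adjusted p = 0.00135), and IFIT1 was not called (limma adjusted p = 0.544).

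IFI44L (ENSG00000137959, chr1:78619922-78646145, plus strand) is a gene strongly induced by type I interferon and a common member of interferon scores. It was at 30.1 and 29.2 CPM in the control libraries, from 1026 and 927 reads, and at 74.0 and 77.3 CPM in the siAARS1 libraries, from 2285 and 2571 reads. Its change of 1.32 on the log2 scale (SE 0.0547, 95% interval 1.21 to 1.44, limma adjusted p = 3.39e-15) stood at the 93.1 percentile of all genes tested. The paralog IFI44, which lies beside it, was at 2.20 and 1.86 CPM in control cells, against 2.40 and 2.32 CPM with siAARS1. The change of IFI44 was 0.15 (95% interval -0.16 to 0.46) and did not pass the test (limma adjusted p = 0.373).

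DDX60 (ENSG00000137628, chr4:168216293-168318807, minus strand) encodes a helicase linked to the sensing of viral RNA. It was at 0.880 and 0.946 CPM in the control libraries, from 30 reads each, and at 3.14 and 2.80 CPM in the siAARS1 libraries, from 97 and 93 reads. The Poisson intervals of the controls reached 1.26 and 1.35 CPM and those of the siAARS1 libraries began at 2.55 and 2.26 CPM. Its change was 1.05 on the log2(CPM + 1) scale (SE 0.153, limma adjusted p = 3.04e-06), where the plain ratio of the means was 3.25-fold, since the added 1 CPM understates the change of a low gene. The paralog DDX60L was at 2.20 and 1.23 CPM in control cells, against 3.56 and 4.27 CPM with siAARS1 (limma adjusted p = 7.64e-05), and 1.39% of the 31-base windows of DDX60 also occur in it. After the GC and length correction given further on, DDX60L was at -0.084 (limma adjusted p = 0.680).

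Levels between genes can be compared only per length, as CPM per kb of the longest GENCODE v29 transcript. In control cells BST2 stood first at 23.1 ± 2.18 CPM per kb, followed by STAT2 at 19.9 ± 0.00608, ISG15 at 10.1 ± 0.871, IRF9 at 8.22 ± 0.162 and IFI44L at 5.05 ± 0.105 CPM per kb (SD, n = 2 each). IFIT1, at 0.640 ± 0.0930 CPM per kb, and IFIT3, at 0.576 ± 0.0997 CPM per kb, overlapped, and IFIT2 and DDX60 were lowest, at 0.341 ± 0.0115 and 0.150 ± 0.00769 CPM per kb. In siAARS1 cells IFI44L rose to the top of this order, at 12.9 ± 0.403 CPM per kb, where it overlapped STAT2 at 12.7 ± 0.451 CPM per kb. BST2 was then at 8.82 ± 0.156, ISG15 at 6.84 ± 0.540 and IRF9 at 3.92 ± 0.156 CPM per kb. The low end of the order stayed with the IFIT genes and DDX60, where IFIT3 overlapped IFIT1 and IFIT2 overlapped DDX60.

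The direction of the 9 changes followed the base composition of the transcripts. The 4 lower genes had transcripts of 51.6 to 63.4% GC and 787 to 3259 nt, and the 5 others had transcripts of 37.8 to 44.3% GC and 2496 to 6071 nt. Across 13819 genes, which are not independent replicates, the fold change and the GC content had a Spearman correlation of -0.657. Of the genes in the quintile with the lowest GC content, which holds IFI44L and DDX60, 80.4% were called higher and 3.36% lower. In the next quintile, which holds IFIT1, IFIT2 and IFIT3, 52.7% were called higher. STAT2 lay in a quintile with 42.5% called lower, BST2 and IRF9 in one with 61.4% and ISG15 in one with 67.4%. Each member whose change passed the test thus lay in a quintile where its direction was the more frequent one.

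**Figure D2:**
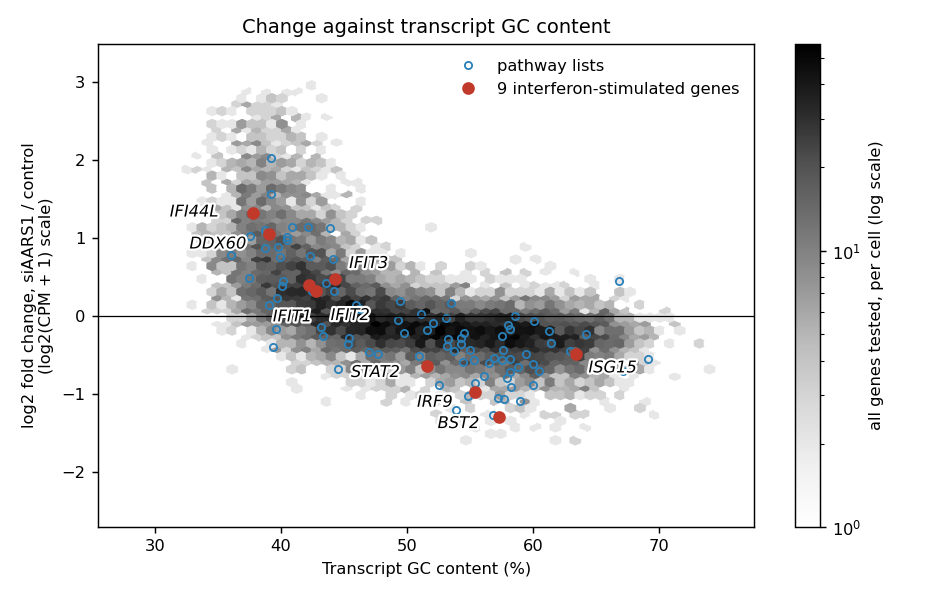
Log2 fold change of siAARS1 against control (y axis) against the GC content of the longest transcript in percent (x axis), with all genes tested as shaded cells on a log color scale, the pathway genes as open circles and the 9 genes as red points. The cloud runs from higher to lower as GC content increases, and the 5 members under 45% GC lie above 0 while the 4 above 50% GC lie below it.

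When the trend with GC content and transcript length was subtracted within each library, 4 of the 9 were called, beside 65.9% of the 13819 genes with a transcript. Of the members 3 were lower, beside 33.3% of these genes, and 1 was higher, beside 32.6%. BST2 stayed lower by the test at -0.999 (limma adjusted p = 2.14e-08), IRF9 at -0.70 (limma adjusted p = 4.88e-06) and STAT2 at -0.45 (limma adjusted p = 2.38e-07). IFI44L went from 1.32 to 0.05 (95% interval -0.06 to 0.15, limma adjusted p = 0.406), and DDX60 from 1.05 to 0.26 (95% interval -0.05 to 0.57, limma adjusted p = 0.133). These had been the 2 largest increases among the members. With GC content and length taken as medians over the transcripts of a gene, IFI44L was at -0.19 and passed the test as lower (limma adjusted p = 0.00225). Its own GC content of 37.8% and length of 5874 nt were the same in both settings. The corrected value of IFI44L thus depended on the trend fitted over all genes. ISG15 was at -0.22 (95% interval -0.46 to 0.02, limma adjusted p = 0.0986), IFIT1 at -0.10 (95% interval -0.38 to 0.19, limma adjusted p = 0.544), and IFIT3 at 0.37 (limma adjusted p = 0.0395). IFIT3 was at 0.25 with the medians over transcripts and did not pass (limma adjusted p = 0.150). The median of the 9 was then -0.10, and that of all genes -0.00. BST2 and STAT2 thus stayed lower once the trend at their GC content and length was subtracted. The test measures the spread between libraries and not the scatter of genes around the trend. The corrected value of IRF9 rests on the split of reads with the overlapping gene, and their sum was not corrected. The intervals of IFI44L and DDX60 around that trend included 0. A correction of this kind also removes a change of the cells that follows GC content, and the 2 cannot be told apart here.

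**Figure D3:**
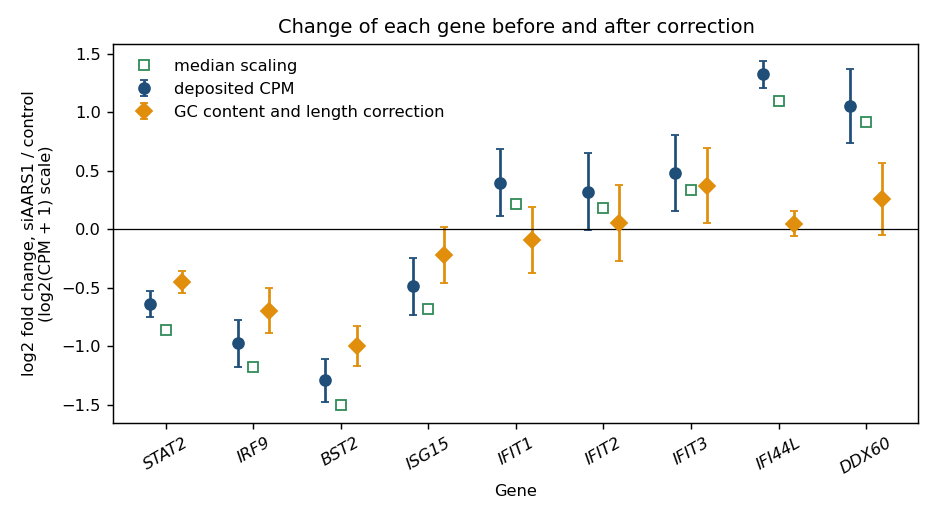
Log2 fold change of siAARS1 against control for each of the 9 genes, on the deposited scale and after the GC and length correction, with 95% intervals. Open squares show median scaling, without intervals. BST2, IRF9 and STAT2 stay below 0 in every series. With the GC and length correction IFI44L moves from 1.32 to 0.05 and DDX60 from 1.05 to 0.26.

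The genes whose 4 values lay nearest to those of a member, by the Euclidean distance of the centred log2(CPM + 1) values over the 4 libraries, were taken for BST2 and IFI44L. For BST2 they were ARSI at a distance of 0.0525, COL13A1 at 0.0747 and IGFBP6 at 0.0789, and 50 genes lay within 0.2. For IFI44L they included EYA4 at 0.0350 and ACADM at 0.0352, and 369 genes lay within 0.2. The profile of IFI44L was therefore shared by more genes than that of BST2, and with 2 groups of 2 libraries such a distance measures little beyond the fold change.

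The other genes of the pathway were taken as 8 lists of 123 genes, of which 88 were listed and tested. Of these, 26 were called higher (29.5%, beside 32.6% of all genes) and 47 lower (53.4%, beside 38.0%), and 15 were not called. Their median log2 fold change was -0.24, with -0.05 over all genes. After the GC and length correction 18 were higher and 42 lower of 87, beside 32.6% higher and 33.3% lower of the 13819 genes with a transcript. Of the 88, 4 passed the filter through the siAARS1 group only, all of them called higher, and 2 through the control group only. None of the 10 interferon and chemokine genes was listed, so they were not analysed here.

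**Figure D4:**
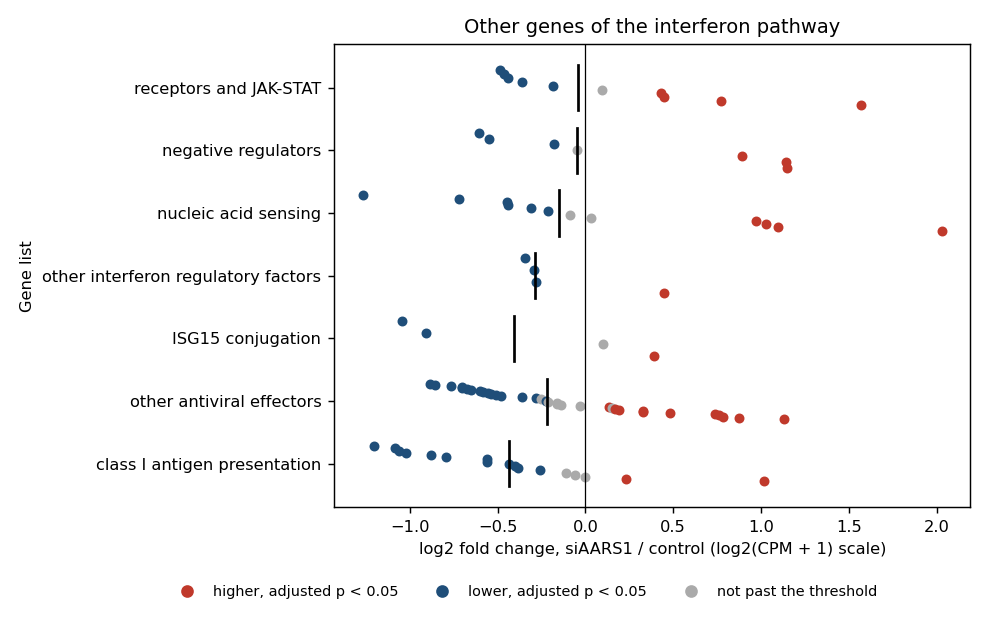
Log2 fold change of siAARS1 against control for the 88 pathway genes by list, with 1 point per gene colored by the call and a bar at each list's median. Class I antigen presentation has 12 of 17 genes lower, and the receptor and negative regulator lists are spread to both sides.

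Upstream of the members, among the 10 receptor and JAK-STAT genes 4 were higher (40%, beside 32.6% of all genes) and 5 lower (50%, beside 38.0%). JAK2, a kinase of cytokine receptors, was at 4.55 and 5.26 CPM in control cells, against 15.5 and 17.5 CPM with siAARS1. Its log2 fold change of 1.57 went to 0.57 after the GC and length correction and to 0.32 with medians over transcripts. IFNAR1, a chain of the type I interferon receptor, was at 22.5 and 22.3 CPM in control cells, against 37.7 and 40.2 CPM with siAARS1, and was at 0.012 after the GC and length correction (limma adjusted p = 0.861) and at -0.27 with medians over transcripts. IL10RB, a chain shared with the type III interferon receptor, was at 39.5 and 40.8 CPM in control cells, against 27.8 and 28.9 CPM with siAARS1. IFNAR2, the other chain of the type I receptor, was lower at -0.46 and stayed at -0.46 after the correction (limma adjusted p = 8.58e-05). The kinase JAK1 was not called (0.095, limma adjusted p = 0.136). TYK2 was lower at -0.18 and was called higher after the correction, at 0.18 (limma adjusted p = 2.81e-05). On the deposited scale receptor chains thus lay in both directions, and IL10RB stayed lower after the correction, at -0.39. The 7 listed negative regulators held 3 higher and 3 lower, 42.9% each, beside 32.6% and 38.0% of all genes. The higher ones were PIAS1, PTPN11 and PTPN2, with log2 fold changes of 1.15, 1.14 and 0.89. After the correction these were at 0.038 for PIAS1, which was no longer called (limma adjusted p = 0.603), 0.35 for PTPN11 and 0.17 for PTPN2. With medians over transcripts PIAS1 was at 0.51 and called higher (limma adjusted p = 6.0e-07), PTPN11 at 1.13 and PTPN2 at 0.64. The size of these 3 changes thus depended on the correction used. The lower ones were SOCS3, SOCS1 and USP18, at -0.61, -0.55 and -0.18. After the correction SOCS3 stayed lower at -0.29 (limma adjusted p = 0.0157). SOCS1 at -0.27 (limma adjusted p = 0.130) and USP18 at 0.037 (limma adjusted p = 0.616) were then not called.

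Of the 12 listed genes of nucleic acid sensing, 4 were higher (33.3%, beside 32.6% of all genes) and 6 lower (50%, beside 38.0%). RIGI (listed as DDX58) and TLR3, both called higher, passed the filter through the siAARS1 group only. DHX58, called lower, passed it through the control group only. TBK1, the kinase that phosphorylates IRF3, went from 4.02 and 4.70 CPM in control cells to 20.7 and 20.9 CPM with siAARS1. STING1 (listed as TMEM173), the adaptor for cytosolic DNA, went the other way, from 37.6 and 39.5 CPM to 15.9 and 14.95 CPM. EIF2AK2, the RNA-dependent kinase PKR, had a log2 fold change of 1.10 on the deposited scale and of -0.35 after the GC and length correction. Of the 4 other interferon regulatory factors listed, IRF7 was higher (0.45, limma adjusted p = 0.0229) and passed the filter through the siAARS1 group only. IRF2 was lower at -0.28 (limma adjusted p = 0.00470) and stayed lower after the correction, at -0.33 (limma adjusted p = 0.000987). IRF3 and IRF1 were also lower, at -0.34 and -0.29, and after the correction IRF3 was at 0.0058 and IRF1 at -0.093 (limma adjusted p = 0.340). DESeq2 called neither IRF1 (adjusted p = 0.0979) nor IRF7 (adjusted p = 0.0885). With median scaling IRF7 was not called (limma adjusted p = 0.0726). Without control replicate 2 neither IRF7 (limma adjusted p = 0.124) nor IRF1 (limma adjusted p = 0.104) was called, and without siAARS1 replicate 2 neither was (limma adjusted p = 0.0977 and 0.0522). IRF7 was also lost without siAARS1 replicate 1 (limma adjusted p = 0.060005).

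Downstream, 34 of 49 other antiviral effectors were listed. Of these, 11 were higher (32.4%, beside 32.6% of all genes), 16 lower (47.1%, beside 38.0%) and 7 not called. On the deposited scale PARP14 was the farthest up at 1.13 and IFITM1, which blocks virus entry, the farthest down at -0.88. After the GC and length correction PARP14 was at 0.52 and IFITM1 at -0.62. With medians over transcripts they were at 0.27 and -0.59. MX1, OAS1 and RSAD2, which are among the genes most used to mark an interferon response, were not listed. In the conjugation of ISG15, the E1 enzyme UBA7 went from 6.04 and 6.15 CPM in control cells to 2.88 and 2.68 CPM with siAARS1, and the E2 enzyme UBE2L6 from 57.3 and 56.3 CPM to 26.9 and 27.2 CPM. Both enzymes were lower, as was ISG15 on the deposited scale, while ARIH1 was at 0.39 and turned to -0.97 after the correction.

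Class I antigen presentation, which interferons induce, had 12 of its 17 genes lower, 2 higher and 3 not called, with a median of -0.43, beside 38.0% of all genes lower and 32.6% higher. After the correction 12 were lower and 3 higher, beside 33.3% and 32.6%. The median GC content of the list was 57.5%, in a quintile where 61.4% of genes were called lower. PSMB9, a subunit of the immunoproteasome, went from 36.6 and 32.7 CPM in control cells to 14.5 and 14.4 CPM with siAARS1. HLA-B went from 127 and 128 CPM to 59.1 and 59.98 CPM, and HLA-F from 19.5 and 16.3 CPM to 8.71 and 7.37 CPM. Reads of HLA genes can be shared between near-identical copies, so that the split between them is uncertain.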

How the data were processed

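RNA-Seq of 4 HGC27 libraries, 2 control and 2 siAARS1, was analysed. The authors deposited CPM values per gene. RSEM 1.3.3 and hg38 are named in the submitters' processing notes, and the annotation, the strand setting and the library scaling are not given in the sources used here. Every listed gene exceeded 1 CPM in at least 1 library. Groups were taken from the sample titles. Values were tested as log2(CPM + 1) with limma 3.58.1 (eBayes with trend, R 4.3.3) over 14199 genes whose mean reached 1 CPM in either group, with Benjamini-Hochberg adjustment and a threshold of 0.05. Scripts were tested on simulated data.

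Alternatives were a pseudocount of 0.1, no filter, median scaling, quantile normalization, a threshold of 0.01, leaving out each library, the replicate block, edgeR 4.0.16 and DESeq2 1.42.0 on whole reads recovered from the CPM steps, and subtraction of a smooth of GC content and length per library (mgcv 1.9.3). GC content and length came from the longest GENCODE v29 basic transcript, found for 97.2% of genes. The members and lists were chosen with earlier results of these data known. Besides the members, AARS1, 3 paralogs, up to 3 called genes per list by size of change and the nearest profiles of BST2 and IFI44L were named, and some genes that this rule takes are not reported here. LIPA, the gene overlapping IRF9, the named genes not listed and the fuller list values were added after their values were seen. So were IFNAR2, JAK1, TYK2, SOCS1, SOCS3, USP18 and IRF2.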

Additional observations from a re-analysis of the deposited data

How the results depend on the processing

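The count of all genes called ranged from 8355 with DESeq2 to 11378 with median scaling, beside 10032. Median scaling moved the median of all genes to -0.26, which split the calls into 3379 higher and 7999 lower in place of 4633 and 5399, and quantile normalization gave 3984 and 6776. BST2, IRF9 and STAT2 kept their direction and their calls in every alternative run, BST2 between -1.39 and -1.20 without 1 library. Members called fell from 8 to 4 with the GC and length correction, also with the replicate block and with GC content and length as medians over transcripts, a setting added after the data were seen. With the correction, with and without the block, IFI44L was at 0.048, DDX60 at 0.26, ISG15 at -0.22 and IFIT1 at -0.10, and turned directions were IFIT5 -0.45, DDX60L -0.084, IFI44 -0.14, ARIH1 -0.97, EIF2AK2 -0.35 and IRF3 0.0058. Among these turned genes IFIT5, ARIH1 and EIF2AK2 were called lower, and the others were not called. Without the block TYK2 and USP18 also turned, to 0.18 and 0.037. With medians over transcripts, IFI44L turned to -0.19 (limma adjusted p = 0.00225), IFIT1 to -0.22 and IFIT2 to -0.17, DDX60 was at 0.089, IFIT3 at 0.25 and ISG15 at -0.20, and IFIT5 was at -0.71, DDX60L -0.26, IFI44 -0.30, ARIH1 -1.38, EIF2AK2 -0.18, IRF3 0.0048 and IFNAR1 -0.27. The sign of the corrected IFI44L change therefore depends on the fitted trend. Its own GC content and length are the same in both settings. Median scaling gave IFIT1 0.22, IFIT3 0.33 and IFI44 -0.0076, and DESeq2 gave IFIT1 0.56 (adjusted p = 0.0654) and IFIT3 0.79 (adjusted p = 0.0555), none past the threshold. At 0.01 IFIT1, at 0.40, was lost. Leaving out 1 library gave IFIT1 0.28 to 0.51 and IFIT3 0.37 to 0.58 with 6 to 8 members called. IFIT1 was not called without control replicate 2 (limma adjusted p = 0.128) or siAARS1 replicate 2 (0.106), nor IFIT3 without control replicate 2 (0.0745) or siAARS1 replicate 1 (0.0937), and the lone library left in a group is then assumed to vary like the other group. Deviations of same-numbered libraries had a correlation of 0.118. With 2 pairs and no label for a shared culture or day, the numbers were not taken to pair the libraries. The replicate block alone gave 10389 genes called and changed no member's call. DDX60 and IFIT1, IFIT2 and IFIT3 rest on 30 to 146 reads a library, and the smallest change detectable at that depth was not tested.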
